A study of Mus musculus with 6 samples.

Results

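The elastic fibre genes described here are 10 named genes of the deposited gene table: Eln, Fbn1, Fbln1, Fbln2, Fbln5, Efemp1, Efemp2, Mfap2, Mfap4 and Mfap5. They were picked by name as parts of the elastic fibre, with earlier results of these data known, and all 10 of the 24970 rows of the table were found and reached the mean of 1 FPKM needed for testing, as did 11240 rows in all. RNA was sequenced from primary vascular smooth muscle cells of C57BL/6 male mice (12 mice, 6 weeks old), cultured in serum-containing growth medium. The 6 samples were transfected for 48 h with 20 nM of siRNA, 3 with a scrambled control (siScrambled) and 3 with siRNA against Pfkfb3 (siPFKFB3), the gene of a regulator of glycolysis. The cells are labelled wild type in siScrambled. The genotype labels of the siPFKFB3 samples name PFKFB3, PFKFB4 and PFKFB5 knockdown in replicates 1, 2 and 3, while all 3 titles name PFKFB3. The labels do not say which siRNA sequence was used, or whether the samples came from separate isolations. The p-values therefore reflect only how far these samples scatter, and that scatter may be technical.

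Elastic fibres give arteries their recoil. Smooth muscle cells secrete tropoelastin, the product of Eln, which gathers on a scaffold of fibrillin microfibrils and is then cross-linked by lysyl oxidases into an insoluble core. Fibulins and small microfibril-associated proteins bind both partners and guide the deposition. The values are FPKM, in which fragment numbers are divided by gene length and by library size, so levels of different genes can be set beside each other. Counts and depth per sample are unknown.

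Eln and Mfap4 were higher and Efemp1, Fbln1 and Mfap5 were lower in siPFKFB3 than in siScrambled, while Fbn1, Fbln2, Fbln5, Efemp2 and Mfap2 did not pass the test. Of the 10 genes, 2 were called higher and 3 lower (limma on log2(FPKM + 1), adjusted p under 0.05 over all 11240 genes tested). Over all tested genes 15.8% were called higher and 20.5% lower, 36.3% in all, or 1775 higher and 2304 lower. This balance turned with scaling by the trimmed mean of M values, which gave 2066 higher and 1994 lower. The median log2 fold change was −0.01 for the 10 genes and −0.02 for all tested genes. The median size of the change, regardless of sign, was 0.23 and 0.14. Groups did not overlap for the 5 called genes, and did not overlap for 49.5% of all tested genes. A share of 5 in 10 is therefore little above the background, and the results are those of the single genes.

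Pfkfb3 itself, the targeted gene, stood at 4.03, 4.02 and 3.86 FPKM in siScrambled and at 1.92, 1.65 and 1.77 FPKM in siPFKFB3, a mean of 44.9% of control (limma, adjusted p = 2.66e-05). Summed FPKM was 348630 to 359741 per library, and 11189 to 11247 rows reached 1 FPKM. Judged from the commonest value among unannotated rows, the deepest library was 1.24 times as deep as the shallowest, a rough estimate. Endothelial markers were near absent, with 0 of 8 at a mean of 1 FPKM, and so were most leukocyte markers. Markers of smooth muscle were present at very unequal levels in siScrambled. Acta2 stood at 1339.7 and Tagln at 717 FPKM, but Myh11 at 16.6, Myocd at 1.51 and Des at 1.24 FPKM. Markers of adventitial fibroblasts were present as well, at a summed 1283 to 1312 FPKM in siScrambled.

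The 10 transcripts covered a wide range of levels. In siScrambled the order of mean FPKM was Eln, Fbln2, Fbln5, Fbn1, Efemp2, Mfap5, Mfap4, Efemp1, Mfap2 and Fbln1. All neighbours in this order were separate in every library except Mfap4 with Efemp1 and Mfap2 with Fbln1, whose siScrambled values overlapped. In siPFKFB3 the order was the same and no neighbours overlapped. Eln ranked 4 among all 24970 rows by mean FPKM, Fbln2 ranked 44 and Fbln5 ranked 109, whereas Mfap2 and Fbln1 ranked 7349 and 8132.

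**Figure D1:**
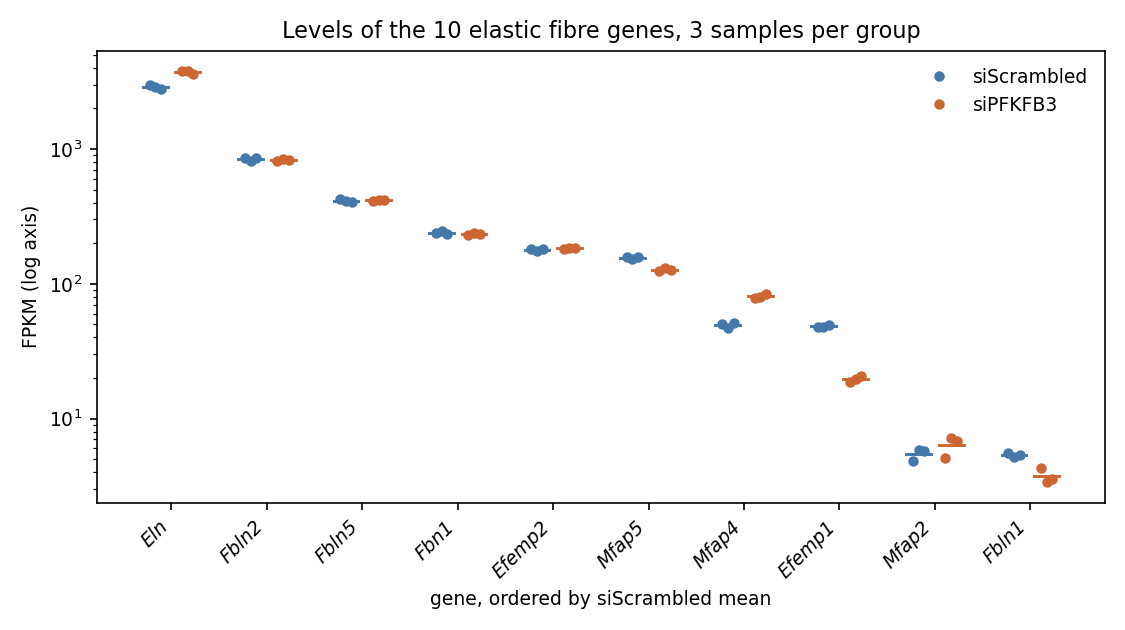
FPKM of each of the 10 genes on a log axis, with a point for each sample (blue siScrambled, orange siPFKFB3, 3 each) and a line at the group mean. Eln and Mfap4 sit higher and Mfap5, Efemp1 and Fbln1 lower in all 3 siPFKFB3 samples, and the points of the other 5 genes overlap between groups.

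Eln (chromosome 5, 134702593 to 134747323, minus strand, ENSMUSG00000029675; GRCm38) encodes tropoelastin, the monomer of the elastic core. In replicate order its level was 2998, 2902 and 2785 FPKM with siScrambled, and with siPFKFB3 it was 3774, 3763 and 3618 FPKM. All siPFKFB3 values lay above all controls, with means of 2895 ± 107 and 3718 ± 86.9 FPKM (SD, n = 3 each), so that siPFKFB3 was 128% of control. The log2 fold change was 0.36 ± 0.03 (SE; limma, adjusted p = 2.61e-05). Exons of Eln overlap those of an antisense gene, Gm30003, whose level was not used here. Because Eln is so abundant, this modest ratio was a large amount of transcript: Eln made up 0.813% ± 0.0229 of all FPKM in siScrambled and 1.06% ± 0.0222 in siPFKFB3 (SD, n = 3 each). Its longest coding model has 860 codons, of which 76.9% spell glycine, alanine, valine or proline and 0.233% spell cysteine. In the other 9 genes these shares ran from 22.6% to 30.1% and from 2.85% to 12.6%. Mfap4, which also rose, lay among the others in the first share, at 27.4%. Its cysteine share of 2.85% was the lowest of the 9, with Mfap5 next at 4.88%.

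The microfibril backbone did not follow Eln. Fbn1 (chromosome 2, 125300594 to 125507993, minus strand) encodes fibrillin-1, the main protein of microfibrils, whose loss of function causes Marfan syndrome in people. It stood at 239, 246 and 235 FPKM in siScrambled and at 229.6, 239.6 and 236 FPKM in siPFKFB3, groups that overlapped. The log2 difference was −0.03, with a 95% interval of −0.10 to 0.04 (limma, adjusted p = 0.487). Fbn2, the fibrillin of the embryo, was listed at 0.159 to 0.164 FPKM in siScrambled and 0.182 to 0.267 FPKM in siPFKFB3 and was too low to be tested.

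Mfap2 and Mfap5 encode MAGP-1 and MAGP-2, small proteins that bind fibrillin along the microfibril. Mfap5 (chromosome 6, 122505845 to 122529290, plus strand) stood at 157, 153 and 157 FPKM in siScrambled and at 124, 132 and 127 FPKM in siPFKFB3. All 3 siPFKFB3 values were below the controls, at 81.8% of the control mean (log2 fold change −0.29 ± 0.03 SE, adjusted p = 0.000150, limma). Mfap2 (chromosome 4, 141010418 to 141015984, plus strand) was far less abundant, at 4.83, 5.88 and 5.78 FPKM in siScrambled and 5.09, 7.13 and 6.78 FPKM in siPFKFB3. Its groups overlapped, and replicate 1 was the lowest library in both. The log2 difference was 0.17 with a 95% interval of −0.10 to 0.43 (adjusted p = 0.298, limma). Without siPFKFB3 replicate 1 it was 0.30 and passed the test (limma, adjusted p = 0.0323).

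Mfap4 (chromosome 11, 61485431 to 61488900, plus strand, ENSMUSG00000042436) encodes a fibrinogen-domain glycoprotein that binds elastin and fibrillin. It rose the most of the 10 genes. It stood at 50.4, 46.6 and 51.4 FPKM in siScrambled and at 77.9, 80.3 and 83.9 FPKM in siPFKFB3, groups far apart. The means were 49.5 ± 2.49 and 80.7 ± 2.99 FPKM (SD, n = 3 each), a log2 fold change of 0.70 ± 0.05 (SE; limma, adjusted p = 4.97e-06). Exons of Mfap4 overlap those of Mapk7 on the opposite strand, and whether counting used strand is not given in the sources used here. Mapk7 stood at 8.46 ± 0.473 FPKM in siScrambled and 8.52 ± 0.416 FPKM in siPFKFB3 (SD, n = 3 each), a log2 difference of 0.01.

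**Figure D2:**
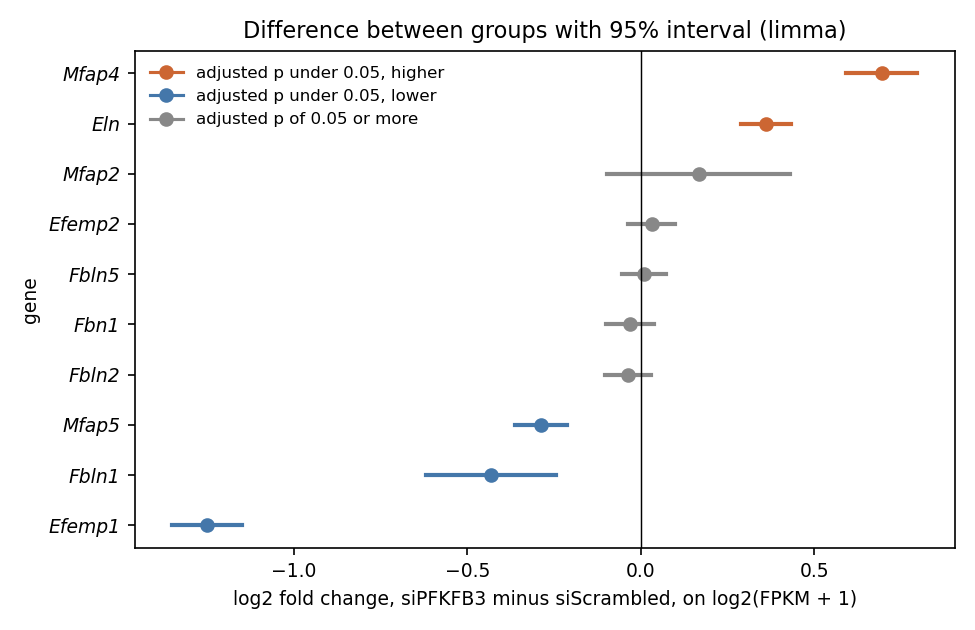
Log2 fold change of each of the 10 genes, siPFKFB3 minus siScrambled on log2(FPKM + 1), as a point with its 95% interval from the limma fit; orange and blue mark adjusted p under 0.05. Efemp1 at −1.25 and Mfap4 at 0.70 are the ends of the range, and the intervals of Fbn1, Fbln2, Fbln5 and Efemp2 are narrow and include 0.

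The short fibulins are Fbln5 (fibulin-5), Efemp2 (fibulin-4) and Efemp1 (fibulin-3). In mice, loss of Fbln5 or Efemp2 disrupts elastic fibres of the arterial wall, and loss of Efemp1 thins those of fascia. Efemp1 (chromosome 11, 28853204 to 28926743, plus strand, ENSMUSG00000020467) stood at 47.7, 47.9 and 49.2 FPKM in siScrambled and at 18.7, 19.8 and 20.6 FPKM in siPFKFB3. The libraries of each group lay close together and the siPFKFB3 mean was 40.8% of control. The log2 fold change was −1.25 ± 0.04 (SE; limma, adjusted p = 2.80e-07), which ranked 36 in size among all 11240 tested genes. Efemp2 (chromosome 19, 5473954 to 5482517, plus strand) stood at 182, 174 and 181 FPKM in siScrambled and at 181, 186 and 184 FPKM in siPFKFB3, with overlapping groups. Its log2 difference was 0.03 with a 95% interval of −0.04 to 0.10 (limma, adjusted p = 0.457). Fbln5 (chromosome 12, 101746565 to 101819055, minus strand) stood at 422, 413 and 404 FPKM in siScrambled and at 410.2, 421 and 417 FPKM in siPFKFB3. The log2 difference was 0.01 with a 95% interval of −0.05 to 0.07 (limma, adjusted p = 0.805). The abundant short fibulins thus differed by at most a small fraction of their level, and Efemp1 fell from 7.53% ± 0.221 to 3.18% ± 0.125 of the summed FPKM of the 3 genes (SD, n = 3 each). Exons of Efemp2 overlap those of Mus81 on the opposite strand, which stood at 6.15 and 4.83 FPKM on average.

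The promoters of Efemp1 and Efemp2 are shown because only Efemp1 of these paralogs was called. Efemp2 has 3 RefSeq starts with a window, of which the most upstream is printed, and the other windows also hold GGGCGG. Each window runs from 250 bases before to 50 bases after a RefSeq transcript start on the plus strand of GRCm38.p6, with capitals marking a match to TGANTCA, the core bound by AP-1 factors, or to GGGCGG, the core bound by Sp1 factors, on either strand. The first lies at chr11:28852955-28853254 and the second at chr19:5473696-5473995.
Efemp1: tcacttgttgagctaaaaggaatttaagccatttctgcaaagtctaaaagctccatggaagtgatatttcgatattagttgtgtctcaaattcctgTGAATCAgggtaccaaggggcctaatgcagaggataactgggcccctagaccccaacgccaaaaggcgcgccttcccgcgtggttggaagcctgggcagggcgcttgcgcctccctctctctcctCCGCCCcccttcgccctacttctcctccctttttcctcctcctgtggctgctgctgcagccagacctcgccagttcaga
Efemp2: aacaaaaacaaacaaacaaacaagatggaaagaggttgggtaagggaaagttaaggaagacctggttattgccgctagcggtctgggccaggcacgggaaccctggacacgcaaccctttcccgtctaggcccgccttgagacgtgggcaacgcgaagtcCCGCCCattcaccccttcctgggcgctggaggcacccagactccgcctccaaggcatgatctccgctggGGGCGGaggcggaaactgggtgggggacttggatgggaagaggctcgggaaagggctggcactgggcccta
Windows of 7 of the 10 genes, 12 windows in all, were searched on both strands. No window was available for Eln, Mfap4 or Mfap5. Some windows of the same gene overlap (Efemp2, Fbln1 and Mfap2), so the 12 are not independent. GGGCGG occurred in 9 of the 12 windows, with each of the 7 genes holding it in at least 1, and in 35.6% of the 32817 windows of all genes. The 12 windows held up to 41 CpG (Efemp2). All but a Mfap2 window with 6 lay above the median of 7 CpG over all windows, and the GGGCGG shares were not adjusted for this. TGANTCA occurred in 1 of the 12 windows, that of Efemp1, and in 7.81% of all windows. The Efemp1 match reads TGAATCA, which is not the AP-1 core. Neither TATAAA nor the CArG box, the core bound by serum response factor, was found in any of the 12 windows, against 13.6% and 1.63% of all windows. These are matches of letters and carry no information on binding.

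The long fibulins are larger proteins that bind elastin, fibronectin and basement membranes. Fbln2 (chromosome 6, 91212455 to 91272540, plus strand) was the second most abundant of the 10 transcripts, at 861, 818 and 863 FPKM in siScrambled and 814, 839 and 825 FPKM in siPFKFB3. The groups overlapped, and the log2 difference was −0.04 with a 95% interval of −0.10 to 0.03 (limma, adjusted p = 0.358). Fbln1 (chromosome 15, 85205949 to 85286535, plus strand) was the least abundant, at 5.59, 5.16 and 5.40 FPKM in siScrambled and 4.32, 3.38 and 3.55 FPKM in siPFKFB3. All 3 siPFKFB3 values lay below the controls, at 69.6% of the control mean (log2 fold change −0.43 ± 0.08 SE, adjusted p = 0.00311, limma). Adding 1 before the logarithm understates the change of a gene this low.

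Differences between paralogs were tested in the same libraries with the exact two-sided permutation test on log2(FPKM + 1) of the first gene minus that of the second, called the log2 ratio here, for 4 pairs. With 3 against 3 samples the smallest p this test allows is 0.1, so none could pass 0.05. The log2 ratio of Efemp1 to Efemp2 was −1.87 ± 0.0363 in siScrambled and −3.16 ± 0.0562 in siPFKFB3 (SD, n = 3 each; exact permutation p = 0.1, 0.133 adjusted over the 4 pairs). That of Mfap2 to Mfap5 was −4.60 ± 0.149 and −4.14 ± 0.186 (SD, n = 3 each; exact permutation p = 0.1, adjusted 0.133). The ratio of Fbln1 to Fbln2 was −7.05 ± 0.0225 and −7.45 ± 0.169 (SD, n = 3 each; exact permutation p = 0.1, adjusted 0.133). In these 3 pairs the groups did not overlap. The Fbn1 to Fbn2 ratio overlapped between groups, with a difference of −0.10 (exact permutation p = 0.2, adjusted 0.2). Fbn2 lies far below the added 1, so this value depends on it: with 0.5 or 0.1 added the difference was −0.14 or −0.30 (exact permutation p = 0.1 for each, the smallest possible), and under quantile normalization −0.02 (p = 0.7).

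The makeup of the set moved toward Eln. The 10 genes summed to 4969, 4813 and 4738 FPKM in siScrambled and to 5638, 5691 and 5521 FPKM in siPFKFB3. Without Eln the other 9 summed to 1911 to 1971 FPKM and 1865 to 1928 FPKM, which overlapped, so the higher sum came from Eln. Of the 10 together, Eln took 60.3%, 60.3% and 58.8% in the siScrambled libraries and 66.9%, 66.1% and 65.5% in the siPFKFB3 libraries. Per 1000 FPKM of Eln, Fbn1 went from 83.0 ± 2.87 to 63.2 ± 2.21 FPKM, Fbln5 from 143 ± 2.14 to 112 ± 3.29 FPKM and Fbln2 from 293 ± 14.9 to 222 ± 6.16 FPKM (SD, n = 3 each). Mfap5 went from 53.9 ± 2.24 to 34.3 ± 1.30 and Efemp1 from 16.7 ± 0.895 to 5.30 ± 0.369 FPKM per 1000 FPKM of Eln. Mfap4 alone of the 9 was higher relative to Eln in every siPFKFB3 library, at 17.1 ± 1.21 and 21.7 ± 1.31 (SD, n = 3 each), and Mfap2 overlapped. These ratios share Eln as their denominator and are given without a test. Among Mfap2, Mfap4 and Mfap5, the summed level overlapped between groups (205 to 214 and 207 to 219 FPKM) while the Mfap4 share was 23.5% ± 0.658 in siScrambled and 37.6% ± 0.970 in siPFKFB3.

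**Figure D3:**
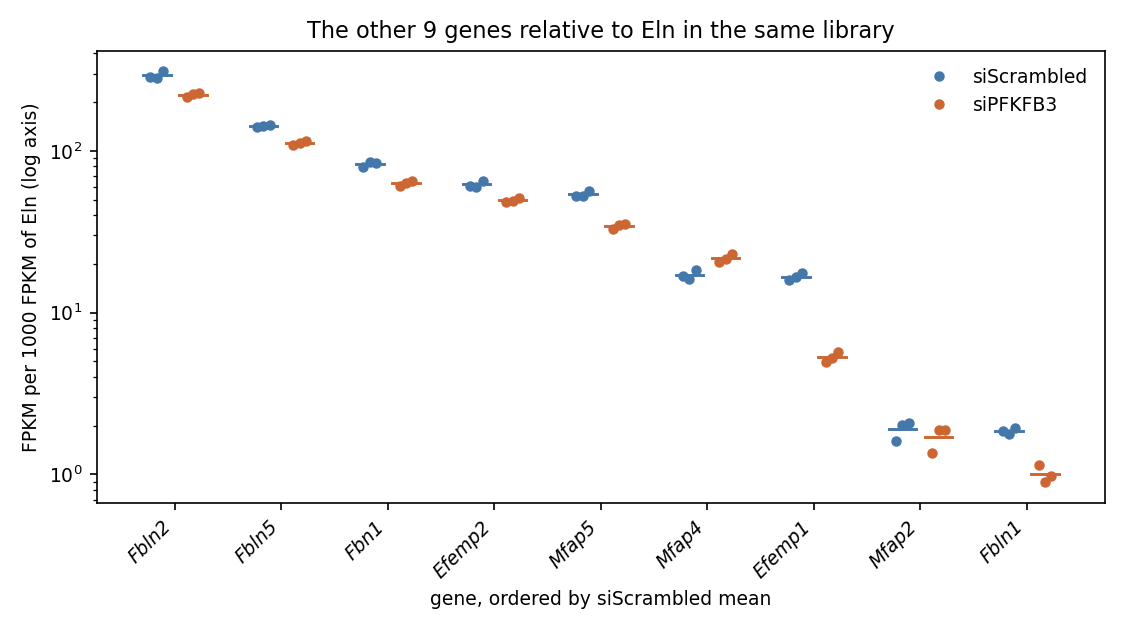
FPKM of the other 9 genes per 1000 FPKM of Eln in the same library, on a log axis, with a point for each sample (3 per group) and a line at the group mean. Relative to Eln, 7 of the 9 genes are lower in every siPFKFB3 sample, Mfap4 is higher and Mfap2 overlaps.

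Genes that work beside the 10 were read from lists chosen with earlier results of these data known. Over 8 lists, 51 of 67 genes were tested, and 21 were called higher and 8 lower, 56.9% against 36.3% of all tested genes. The lysyl oxidases, which cross-link elastin and collagen, all passed the test but in both directions, 3 higher and 2 lower (median log2 fold change 0.25). Lox, the main elastin cross-linker of arteries, stood at 689 ± 30.2 FPKM in siScrambled and 851 ± 12.9 FPKM in siPFKFB3 (SD, n = 3 each; log2 fold change 0.31, limma adjusted p = 0.000119). Loxl3 rose by 0.36 and Loxl1, an oxidase tied to elastin upkeep in mice, by 0.25. Loxl2, known chiefly for its action on collagen, went from 64.5 ± 1.91 to 46.4 ± 1.23 FPKM (SD, n = 3 each; log2 fold change −0.47, limma adjusted p = 1.80e-05), and Loxl4 had a log2 fold change of −0.28.

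Of 10 tested genes listed as microfibril partners and latent TGF-beta binding proteins, 5 rose and 1 fell (median log2 fold change 0.11). Mfap1a and Mfap1b (−0.04 and 0.01, not called) are in this list by name, and their place in microfibrils was not checked. The latent TGF-beta binding proteins resemble fibrillins and anchor TGF-beta to microfibrils. Ltbp2 went from 68.3 ± 1.81 to 89.5 ± 2.96 FPKM and Ltbp1 from 42.5 ± 1.05 to 53.0 ± 4.72 FPKM (SD, n = 3 each), log2 fold changes of 0.39 and 0.31 (limma, adjusted p = 4.92e-05 and 0.00354). Mfap3 rose by 0.25, and Emilin2, of a family of elastic fibre glycoproteins, had a log2 fold change of −0.29. Of 6 tested fibrillin-associated ADAMTS and ADAMTSL genes, 1 rose (Adamtsl2, 0.33) and 1 fell (Adamtsl5, −0.41), with a list median of −0.09. Of 7 TGF-beta ligands and receptors, 3 rose and 1 fell (median 0.08), all by small amounts: Tgfbr1 0.21, Tgfb1 0.19, Tgfb2 0.17 and Tgfb3 −0.11 on the log2 scale. The call of Tgfb1 (limma, adjusted p = 0.0449) ended in 7 of 15 alternative settings, among them with the replicate block (adjusted p = 0.0506) and on leaving out control replicate 2 or 3, or knockdown replicate 1 or 2 (adjusted p up to 0.141). That of Tgfbr1 ended without replicate 1 of either group (limma, adjusted p = 0.0501 and 0.0590), and that of Tgfb3 under quantile normalization (adjusted p = 0.233) and in plain limma (0.0746).

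Most tested genes for elastin breakdown were not called, and 6 of 11 listed proteases were too low to test. Of 5 tested elastin-degrading proteases, 1 was called: Mmp14, a membrane metalloproteinase, rose from 308 ± 2.21 to 353 ± 11.9 FPKM (SD, n = 3 each; log2 fold change 0.19, limma adjusted p = 0.00113). The list median was 0.01, and the elastases Mmp9, Mmp12 and Elane had means under 1 FPKM in both groups. Their inhibitors went both ways, with 1 of 5 tested genes higher and 3 lower (median −0.20). Timp3, the inhibitor held in the matrix, went from 446 ± 16.4 to 709.6 ± 25.4 FPKM, while Timp1 went from 388 ± 21.6 to 278 ± 14.5 FPKM (SD, n = 3 each), log2 fold changes of 0.67 and −0.48 (limma, adjusted p = 1.79e-06 and 0.000100). Timp2 and Reck had log2 fold changes of −0.29 and −0.20. All 3 genes whose products form the elastin receptor complex rose: Neu1 by 0.22, Glb1 by 0.17 and Ctsa by 0.13 (limma, adjusted p = 0.0225, 0.0407 and 0.0103). These FPKM are per gene and do not separate splice variants of Glb1, and the complex itself was not measured. The Glb1 call ended in 6 of 15 alternative settings, among them on leaving out control replicate 1 or 2, or knockdown replicate 2 or 3 (limma, adjusted p up to 0.137). The Neu1 call ended in 3, among them without siScrambled replicate 3 or siPFKFB3 replicate 2 (limma, adjusted p = 0.0834 and 0.0761).

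**Figure D4:**
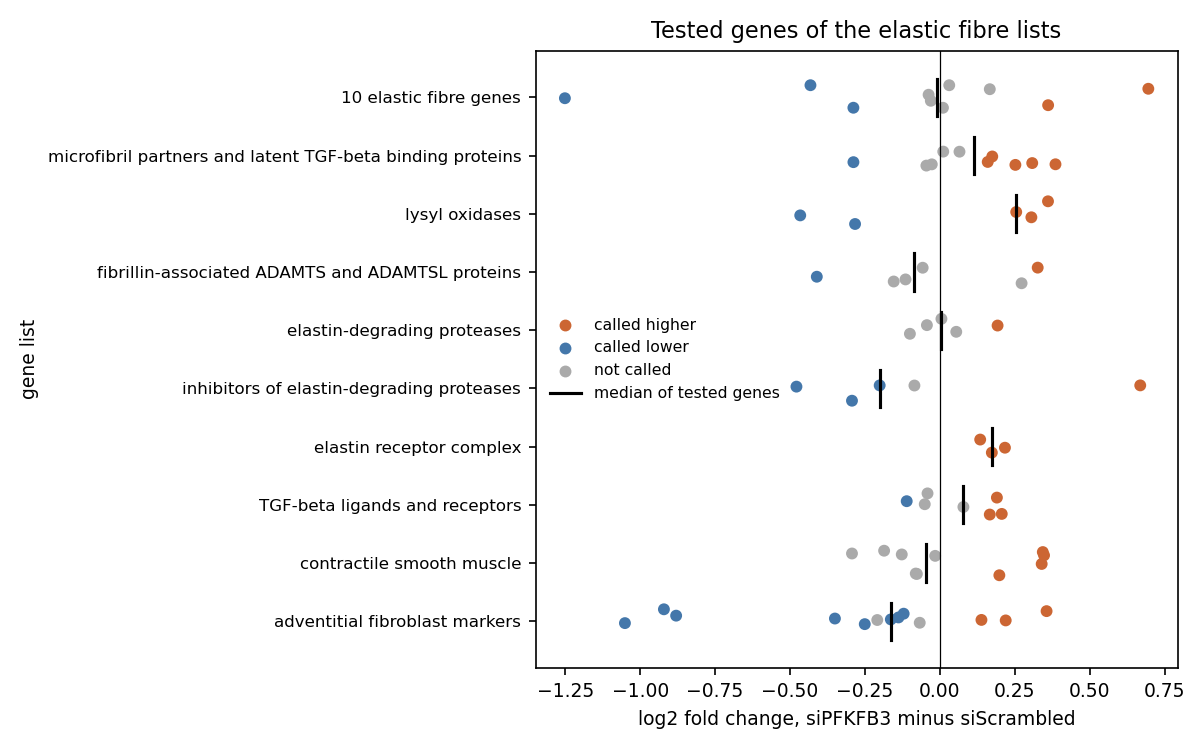
Log2 fold changes (siPFKFB3 minus siScrambled) of the tested genes of each list, a point per gene, fibroblast markers included, with orange called higher, blue called lower, grey not called and a black line at the median; vertical scatter within a list has no meaning. The 10 elastic fibre genes span the widest range, from Efemp1 at −1.25 to Mfap4 at 0.70, around a median of −0.01.

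Markers of smooth muscle, fibroblasts, mesothelium and cartilage also differed between groups, and their part in these results was not tested. In bulk RNA, fewer cells of a type and less RNA per cell cannot be told apart. Of 10 contractile smooth muscle genes, 4 were called higher, Acta2 (0.34), Mylk (0.35), Synpo2 (0.34) and Cnn1 (0.20), and 6 were not called (median log2 fold change −0.05). Of these 6, Des (−0.29), Myocd (−0.19), Smtn (−0.13), Myh11 (−0.08) and Tagln (−0.08) had every siPFKFB3 value below every control (limma, adjusted p = 0.0509, 0.172, 0.0698, 0.189 and 0.0670). The Synpo2 call ended without siScrambled replicate 3 or siPFKFB3 replicate 2 (limma, adjusted p = 0.0512 and 0.0536). Their summed level was 2140 to 2238 FPKM in siScrambled and 2483 to 2555 FPKM in siPFKFB3, most of it Acta2. The 10 elastic fibre genes were not sorted by the cell types that express them. Of 13 adventitial fibroblast markers outside the 10 genes, 8 were called lower and 3 higher (median −0.16), against 20.5% and 15.8% of all tested genes. Cd34 went from 11.8 ± 0.290 to 5.17 ± 0.169 FPKM and Dpt from 57.4 ± 1.54 to 30.8 ± 2.45 FPKM (SD, n = 3 each), while Col14a1 went from 224 ± 7.14 to 287 ± 7.87 FPKM. Cd34, Clec3b and Dpt, the 3 lowest of the 13 relative to control, stood at 43.9%, 41.8% and 53.6% of their control means, beside 40.8% for Efemp1. Pi16 stood at 64.3%, and the remaining markers ran from 81.8% (Pcolce2) to 128% (Col14a1). The summed level of the 13, mostly from Dcn, Lum, Col14a1, Gsn and Ly6a, was 1283 to 1312 FPKM in siScrambled and 1235 to 1257 FPKM in siPFKFB3. Of 6 mesothelial markers only Upk3b was high enough to test, and it went from 4.39 ± 0.410 to 1.61 ± 0.327 FPKM (SD, n = 3 each). Of 8 chondrocyte markers 5 were tested and 4 rose, with a summed level of 101.2 to 107.0 FPKM in siScrambled and 199 to 227 FPKM in siPFKFB3. Col2a1, the collagen of cartilage, went from 56.0 ± 3.71 to 158 ± 12.9 FPKM and Acan, its main proteoglycan, from 9.50 ± 0.660 to 14.7 ± 0.809 FPKM (SD, n = 3 each). Sox9 stood at 12.4 and 12.6 FPKM on average, and Matn1 was listed at 0 in every library.

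Across the 6 samples the profiles most like that of Eln on log2(FPKM + 1) were those of Dnajc30 (Pearson r = 0.997), Ajuba (r = 0.997) and Tmco1 (r = 0.996), the 3 highest of all tested genes. Dnajc30 stood at 3.95, 3.84 and 3.37 FPKM in siScrambled and 8.17, 7.92 and 7.43 FPKM in siPFKFB3. In these 2 groups of 3 libraries any gene with a steady difference between groups correlates with Eln. Dnajc30 and Tmco1 both share with Eln the order of the libraries within each group as well.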

How the data were processed

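TRIzol RNA of the 6 primary cell samples went into mRNA libraries, per the labels' protocols. The submitters' processing notes name HISAT2, with no version, and the build GRCm38/mm10. For the counting tool, strand setting and annotation release, the sources used here give nothing. The authors deposited FPKM for each gene, named so in the file header, so no counts or counting intervals can be given. Symbols were matched for 22022 of 22036 Ensembl IDs. The 10 genes and all lists were chosen with earlier results of these data known.

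The 11240 genes averaging 1 FPKM or more were tested on log2(FPKM + 1) with limma 3.58.1 in R 4.3.3, with a variance trend and robust fit, two-sided, Benjamini-Hochberg adjusted over all genes tested, threshold 0.05. Adjusted p-values are from this fit unless an alternative setting is named beside them, or, for paralog ratios, are adjusted over the 4 pairs. The fit was tested on simulated data. Fold changes compare siPFKFB3 with siScrambled, and the added 1 understates those of low genes. Paralog ratios were tested with exact permutation (scipy 1.17.1). Up to 4 called genes with the largest change were named per list, beside the 10 genes, Pfkfb3, Fbn2 and the 3 genes most like Eln. Marker genes, overlapping genes, Loxl1, Tagln, Mfap1a, Mfap1b, Mmp9, Mmp12 and Elane were named after their values were seen. Gene models are GENCODE M21 on GRCm38 and promoter windows RefSeq GRCm38.p6. Alternatives were other pseudocounts, filters and scalings (TPM, trimmed mean of M values, quantile), plain limma, a replicate block and leaving out each sample.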

Additional observations from a re-analysis of the deposited data

How the results depend on the processing

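Across 15 alternative settings the calls of Eln, Mfap4, Mfap5, Efemp1 and, in the 14 where it was tested, Fbln1 kept their direction and stayed past the threshold, with log2 fold changes of 0.33 to 0.39, 0.65 to 0.72, −0.31 to −0.26, −1.29 to −1.22 and −0.52 to −0.38. Fbln1 lies under the filter of a mean of 5 FPKM, so 2 members were then called lower. Genes not called could turn sign: Fbn1 was at 0.046 under quantile normalization (limma, adjusted p = 0.335). Leaving out 1 sample moved Fbln5 between −0.0054 (without siScrambled replicate 3) and 0.026, and Mfap2 between 0.087 and 0.30, and only without siPFKFB3 replicate 1 was Mfap2 called (limma, adjusted p = 0.0323). The paralog ratios, the summed level and the Eln share kept their direction under every alternative run for them. Of 388 values of 26 named genes of the surrounding lists, 22 lost the call and 0 turned sign. The scaling that moved the median of all genes most, the trimmed mean of M values, shifted it by 0.025, from −0.023 to 0.0022, and the share of calls that were higher went from 43.5% to 50.9%. TPM scaling gave 1950 genes higher and 2045 lower.

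The shared replicate numbers showed no sign of marking pairs, though 3 samples per group cannot exclude it. Deviations from the group means correlated at −0.11, 0.06 and 0.05 for numbers 1, 2 and 3. Not every sample correlated best with its own number. With the replicate block, 1680 genes were called higher and 2227 lower against 1775 and 2304 without it; the 10 members kept their calls, and 13 genes of the surrounding lists were called lower in place of 8, for which the cause was not tested. Depth is unknown, which limits what can be said of the low genes Mfap2, Fbln1 and Fbn2.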

Other observations

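Dnajc30, the gene whose profile was most like that of Eln, lies 316.9 kb from it on chromosome 5 (135064202 to 135065862, plus strand). This was seen after the values, so the genes within 500 kb of Eln are given as a description. Of 16 tested neighbours, 4 were called higher and 2 lower, against 15.8% and 20.5% of all tested genes. Dnajc30, which encodes a mitochondrial protein of the DnaJ family, had the largest change at a log2 fold change of 0.91, from 3.72 to 7.84 FPKM (limma, adjusted p = 1.35e-05). Bcl7b (0.35), Gtf2i (0.23) and Clip2 (0.17) were also higher, and Abhd11 (−0.34) and Eif4h (−0.11) were lower. Limk1, the tested gene nearest to Eln at 14 kb, had a log2 fold change of −0.08 and was not called (limma, adjusted p = 0.261).

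In an earlier search of these data, genes carrying GAAGAAC in their longest 3′ UTR tended to be lower in siPFKFB3. The median log2 fold change was −0.08 for 1188 carriers and −0.02 for the other genes. These medians come from the same samples as that search and do not test it, and 3′ UTR length was not accounted for. None of the 10 elastic fibre genes carries GAAGAAC, against 10.9% of 10854 genes searched. A set of 10 genes is too small to be set apart from that share, and whether the siRNA acted on other genes was not tested.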
